A study of Mus musculus with 24 samples.

Results

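The genes described here set how much pyruvate enters mitochondrial oxidation and how muscle takes up and traps glucose. They comprise the 4 pyruvate dehydrogenase kinases (Pdk1, Pdk2, Pdk3 and Pdk4), both pyruvate dehydrogenase phosphatases (Pdp1 and Pdp2), the glucose transporters GLUT1 (Slc2a1) and GLUT4 (Slc2a4), hexokinase 2 (Hk2) and the muscle fructose-1,6-bisphosphatase (Fbp2). Every probe set that the array's probe-to-gene table assigns to one of these genes was taken, which gave 17 probe sets for 10 genes out of 45037 probe sets and 18193 genes in all. Pdk1 had 4 probe sets, Slc2a1 had 3, Pdp1 and Slc2a4 had 2 each, and the other 6 genes had 1 each.

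The pyruvate dehydrogenase complex turns pyruvate into acetyl-CoA. The kinases phosphorylate the complex and switch it off, and the phosphatases reverse this, so their balance decides between glucose and fatty acid as fuel. Pdk4 is the kinase known for its rise in fasting, and PPARα, a nuclear receptor activated by fatty acids, is known to raise its transcription in several tissues. GLUT4 and hexokinase 2 carry out insulin-stimulated glucose uptake in heart and skeletal muscle, and Fbp2 catalyses the muscle step from fructose-1,6-bisphosphate back to fructose-6-phosphate that leads toward glycogen.

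RNA came from livers and hearts of male and female SV129 mice, either wild-type (WT) or carrying a knockout of PPARα (KO), 12 animals per sex and genotype, about 10 to 12 weeks old and killed 14 h after lights-on (zeitgeber time 14), and both tissues were taken from these animals. RNA of 4 animals was combined on an array, so the 24 arrays gave 3 pools in each of 8 groups of tissue, sex and genotype. In both tissues, pools 1 to 3 were WT males, 4 to 6 KO males, 7 to 9 WT females and 10 to 12 KO females. The labels name no Cre driver or tissue restriction for the knockout, and p-values measure the spread between pools, not between single animals. In whole tissue, fewer cells of a type and less RNA per cell cannot be told apart.

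Values are log2 intensities, and the median over all probe sets of an array, 2.43 to 2.49 for liver and 3.01 to 3.07 for heart, serves here as a mark of dim signal. A gene was called changed where limma gave it an adjusted p under 0.05, with the adjustment made over all 18193 genes. Levels were not set against each other across tissues or between probe sets. For Ppara, the highest KO pool lay below the lowest WT pool in each tissue and sex, with differences of -1.05 in female liver, -1.12 in male liver, -1.53 in female heart and -1.25 in male heart, and the transcript stayed detectable. Where the probes lie relative to the deleted part was not known. Hepatocyte markers had medians between 12.2 and 12.6 in liver arrays, and cardiomyocyte markers between 12.9 and 13.0 in heart arrays. The heart library labelled male KO pool 4 went partly against its label, with Xist at 6.62 where the remaining male hearts reached 3.12 or less, and it held skeletal muscle transcripts at a median of 5.17 over 17 markers against at most 3.47 in the other hearts. The heart library labelled female KO pool 10 had the Y-linked transcript Eif2s3y at 3.34, against at most 2.50 in the other female hearts, and the liver transcript Alb at 7.94, against at most 5.02 in the other hearts, with a hepatocyte marker median of 3.77 against at most 3.23. The heart library of male KO pool 6 had a median of 4.72 over 8 macrophage and leukocyte markers, against at most 4.09 in the other hearts. The heart calls are therefore also given without these libraries.

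The promoters of Pdk4 and Fbp2 are shown because these were the members whose level was called different between KO and WT. Both are on the minus strand and are given 5′ to 3′ from RefSeq on build GRCm38.p6, from 250 bases before to 50 after the gene start, at chr6:5496229-5496528 for Pdk4 and chr13:62858351-62858650 for Fbp2. Capitals mark the matches to the motifs searched, in Pdk4 a CCAAT box read on the other strand and in Fbp2 an E-box.
Pdk4: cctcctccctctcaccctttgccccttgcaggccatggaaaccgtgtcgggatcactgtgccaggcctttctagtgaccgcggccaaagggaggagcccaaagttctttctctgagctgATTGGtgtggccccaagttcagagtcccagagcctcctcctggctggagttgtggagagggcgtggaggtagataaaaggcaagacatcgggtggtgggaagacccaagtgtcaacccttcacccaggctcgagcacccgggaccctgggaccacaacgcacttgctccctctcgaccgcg
Fbp2: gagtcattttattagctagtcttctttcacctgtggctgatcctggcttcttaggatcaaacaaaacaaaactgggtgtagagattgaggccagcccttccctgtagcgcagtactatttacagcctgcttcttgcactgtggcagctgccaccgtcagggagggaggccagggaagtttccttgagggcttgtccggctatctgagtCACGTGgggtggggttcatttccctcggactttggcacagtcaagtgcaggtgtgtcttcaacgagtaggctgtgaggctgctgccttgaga
Promoters were at hand for 8 of the 10 genes, 10 windows in all. Motifs were searched on both strands. The element that PPARα binds with its partner RXR was searched only as an exact pair of AGGTCA units with any 1 base between them. This exact pair occurred in 0.0396% of 32851 promoter windows of the same length and in none of the members' windows. Elements with other letters or outside the windows were not searched. At so low a share, absence from 10 windows cannot show whether these genes have such an element. A single exact unit AGGTCA, which each such pair also holds, occurred in 16.3% of all windows and again in none of the members'. The E-box CACGTG was in 7.15% of all windows and the CCAAT box in 37.4%. Among the members, Pdk2, Pdp2 and Fbp2 held an E-box and Pdk2, Pdk3, Pdk4, Pdp2, Slc2a1 and Hk2 a CCAAT box. The GC box GGGCGG was in 35.7% of all windows and in those of Pdk1, Pdk3, Pdp2, Slc2a1 and Hk2. The TATA box TATAAA was in 13.6% of all windows and, of the members, in that of Slc2a1, and the forkhead motif GTAAACA was in 3.65% and in none of the members'.

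Across the comparisons of KO with WT, 1 of the 10 genes was called in each tissue and sex. Pdk4 rose in the liver of both sexes, and Fbp2 fell in the heart of both sexes. Over all genes, limma called 0.813% in female liver, 0.605% in male liver, 0.533% in female heart and 0.401% in male heart. The median difference over the 10 genes was -0.031 in female liver, -0.0087 in male liver, 0.021 in female heart and -0.057 in male heart, against -0.0015, 0.011, -0.0053 and 0.0038 over all genes. At an unadjusted p under 0.05 there were 3, 2, 3 and 3 of the 10. The share of all genes at that unadjusted p was not counted, so no excess can be read from these counts. The pools of KO and WT did not overlap for 2 of the 10 genes in female liver, 3 in male liver, 4 in female heart and 4 in male heart, while over all genes this held for 10.4%, 16.7%, 12.1% and 11.4%.

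**Figure D1:**
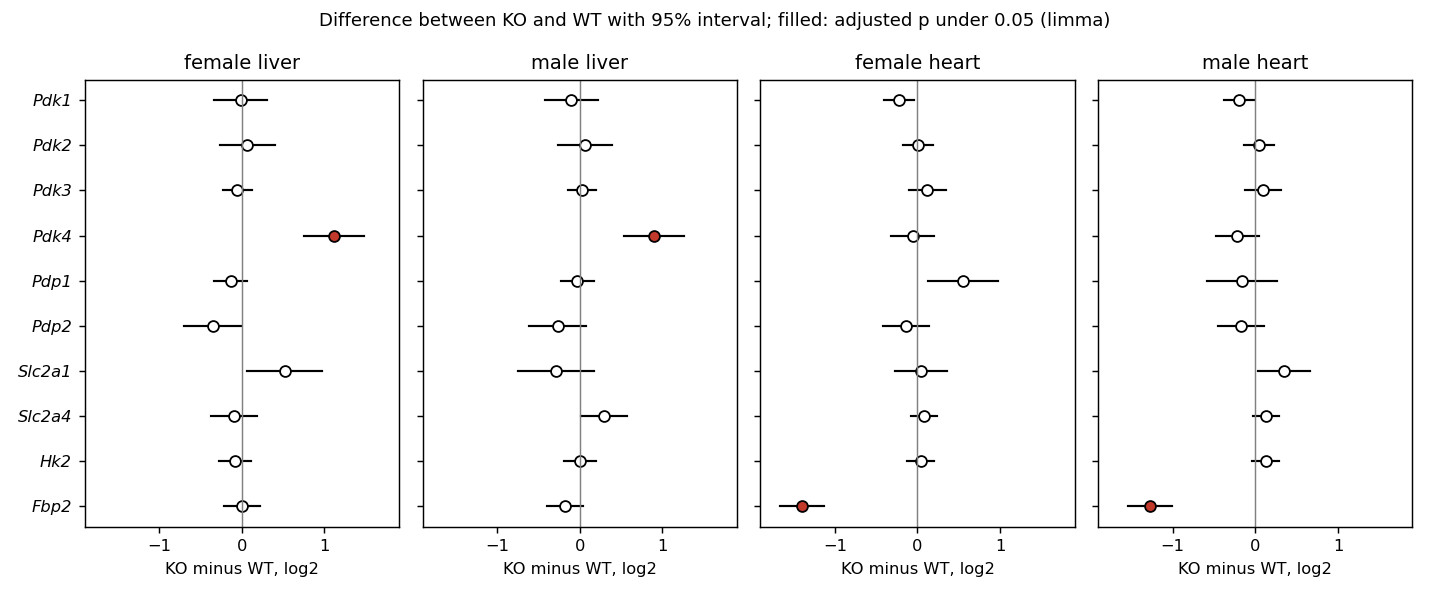
Difference between KO and WT in log2 intensity (horizontal axis) for the 10 genes, 1 panel per tissue and sex, with 95% confidence intervals from limma over 3 pools per group. Filled points, called at an adjusted p under 0.05, are Pdk4 in both liver panels, at 1.12 in females and 0.90 in males, and Fbp2 in both heart panels, at -1.40 in females and -1.28 in males.

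Pdk4, on chromosome 6, was dim in WT liver and higher in every KO liver pool. In female liver, the WT pools had log2 intensities of 2.40, 2.67 and 2.40 and the KO pools 3.83, 3.72 and 3.29. The KO pools all lay above the WT pools, and KO pool 12 was the lowest of the 3. The difference was 1.12, a 2.17-fold rise (SE 0.17, 95% interval 0.75 to 1.48, limma adjusted p = 0.00446). By size it was the 15th of 66 genes called higher in female KO liver.

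In male liver, the WT pools had Pdk4 at 2.03, 2.34 and 2.34 and the KO pools at 2.80, 3.20 and 3.42. All KO pools were again above all WT pools, but the KO pools were spread over a wider range than the WT pools. The difference was 0.90, a 1.87-fold rise (SE 0.17, 95% interval 0.54 to 1.27, limma adjusted p = 0.0274), and it was the 17th by size of 31 genes called higher. The call did not pass when pool 1, 2, 3, 5 or 6 was left out. The limma adjusted p was 0.166 without pool 1, 0.0896 without pool 2, 0.085 without pool 3, 0.136 without pool 5 and 0.121 without pool 6. The differences were then from 0.76 to 0.95. Over all genes, calls in these fits with fewer pools were between 55 and 80, against 110 with all pools. The KO effect did not pass as different between the sexes, at 0.22 in females minus males (95% interval -0.30 to 0.73, limma adjusted p = 0.994). The WT means of 2.49 ± 0.16 in females and 2.24 ± 0.18 in males (SD, n = 3 pools) lay near or under the median of liver arrays, 2.45, so both rises may be understated. The lists of cardiomyocyte and skeletal muscle markers, cells in which Pdk4 is abundant, had medians of at most 2.51 in every liver array, and none of their genes was called in liver. The part of muscle cells in the Pdk4 result was not tested. The summed level of 7 adipocyte markers was higher in every KO liver pool than in the WT pools of its sex, at 17.2 to 17.4 against 16.1 to 16.6 in females and 16.7 to 17.3 against 16.2 to 16.4 in males. Of the 7, Adipoq, which defines fat cells, was below the array median in all 12 livers, and Fabp4 was at 3.48 and 3.33 in female KO pools 10 and 11, which also had the highest Pdk4, and at most 2.97 in the other livers. None of the 7 was called in liver, and their part in the Pdk4 result was not tested. Other summed marker levels that did not overlap between KO and WT liver were those of endothelial cells, lower in female KO, and erythroid cells, higher in male KO.

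In heart Pdk4 stood far above the array median in all 12 arrays and was not called in either sex. The female WT hearts had 9.72, 9.52 and 9.58 and the female KO hearts 9.42, 9.62 and 9.61, which overlap. The male WT hearts had 9.46, 9.59 and 9.48 and the male KO hearts 9.48, 9.44 and 8.96, which overlap too, with KO pool 6 apart from the rest. That pool also had the highest level of the leukocyte marker Ptprc, 6.52 against at most 4.20 in the other hearts, and the part of these cells in its Pdk4 value was not tested. The differences were -0.06 in females (95% interval -0.32 to 0.20, limma adjusted p = 0.981) and -0.22 in males (95% interval -0.48 to 0.04, limma adjusted p = 0.83), and in males without pool 6 the difference was -0.05. The KO effect on Pdk4 in liver exceeded that in heart by 1.18 in females (limma adjusted p = 0.00497) and by 1.12 in males (limma adjusted p = 0.0104). With the pool number as a replicate block the male value no longer passed (limma adjusted p = 0.0731). The labels do not say whether a number marks the same 4 animals in both tissues.

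**Figure D2:**
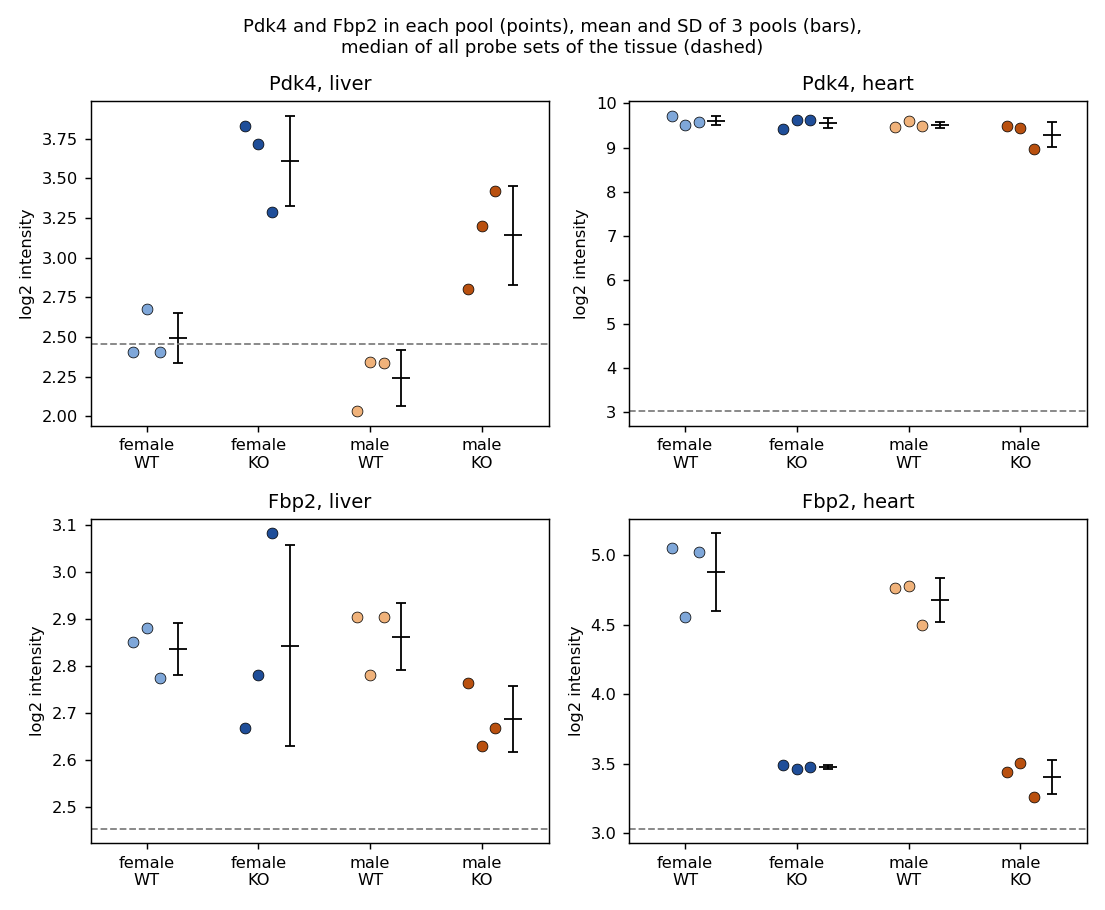
Log2 intensity of Pdk4 (top) and Fbp2 (bottom) in each pool of liver (left) and heart (right), with the mean and SD of 3 pools beside the points, the median of all probe sets of the tissue as a dashed line, and a vertical scale that differs between panels. Liver Pdk4 runs from 2.03 to 3.83 with all KO pools above the WT pools of their sex, and heart Fbp2 from 3.26 to 5.05 with all KO pools below all WT pools.

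The other kinases were not called in either tissue. Pdk2, on chromosome 11 and the most widely expressed kinase of the family, ranged between 5.73 and 6.45 in the 12 livers and between 9.41 and 9.68 in the 12 hearts. Its differences in liver were 0.07 in each sex and in heart 0.01 in females and 0.05 in males, with heart intervals from -0.17 to 0.18 and from -0.13 to 0.22. Pdk3, the X-linked kinase, lay between 2.31 and 2.51 in liver, above the array median in 5 of 12 arrays, and between 3.45 and 3.86 in heart. Its differences ran from -0.05 in female liver to 0.12 in female heart.

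Pdk1, the kinase induced by hypoxia, was not called at any of its 4 probe sets. At the probe set with the highest mean, the female WT hearts had 7.25, 7.26 and 7.47 and the female KO hearts 7.13, 7.04 and 7.16. The male WT hearts had 7.19, 7.27 and 7.28 and the male KO hearts 6.97, 7.11 and 7.08. The KO pools lay below the WT pools of their sex in both cases, by -0.22 in females and -0.20 in males, but did not pass (limma adjusted p = 0.588 and 0.729). The other probe sets of Pdk1 in heart had differences of 0.10, -0.03 and -0.08 in females and -0.15, -0.14 and 0.21 in males. The last of them stayed below the array median in all 24 arrays. In liver the differences at the probe set with the highest mean were -0.01 in females and -0.10 in males.

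The phosphatases were not called. Pdp1, the calcium-stimulated phosphatase of muscle, was below the array median in all 12 livers at both probe sets. In female heart its brighter probe set had 4.56, 5.33 and 5.33 in WT and 5.56, 5.36 and 5.96 in KO. The KO pools lay above the WT pools, by a narrow margin, since WT pool 7 was low and KO pool 11 was close to the highest WT pools. The difference of 0.55 (95% interval 0.13 to 0.97) did not pass (limma adjusted p = 0.513), and at the dimmer probe set it was 0.37. In male heart the brighter probe set had 5.44, 5.11 and 5.44 in WT and 5.30, 4.89 and 5.33 in KO, with a difference of -0.16. The sexes differed by 0.71 in this KO effect without passing (limma adjusted p = 0.978).

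Pdp2, the phosphatase known to respond to insulin, stayed between 2.85 and 3.76 in the livers and between 3.49 and 4.14 in the hearts. Its difference was below 0 in all 4 comparisons, at -0.35 and -0.26 in female and male liver and -0.14 and -0.18 in female and male heart. The male liver pools did not overlap, with 3.76, 3.39 and 3.51 in WT and 3.25, 3.39 and 3.23 in KO, where the nearest pools agree to 2 decimals. None of these passed, the lowest limma adjusted p being 0.68.

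Fbp2, on chromosome 13, was the member that changed in heart. In female heart the WT pools had 5.05, 4.55 and 5.02 and the KO pools 3.49, 3.46 and 3.47. Every KO pool was below every WT pool, and the KO pools lay close together. The difference was -1.40, a 2.64-fold lower intensity (SE 0.12, 95% interval -1.67 to -1.14, limma adjusted p = 1.59e-05). It was the 7th by size of 75 genes called lower in female KO heart.

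In male heart the WT pools had Fbp2 at 4.76, 4.77 and 4.50 and the KO pools at 3.44, 3.50 and 3.26. The groups did not overlap, and no male KO pool was above 3.50. The difference was -1.28, a 2.42-fold lower intensity (SE 0.12, 95% interval -1.54 to -1.01, limma adjusted p = 4.12e-05), the 6th by size of 58 genes called lower. The KO means of 3.47 in females and 3.40 in males remained above the heart array median of 3.03. The KO effect did not pass as different between the sexes, at -0.12 (95% interval -0.50 to 0.25). Without heart pools 4 and 10 the differences were -1.41 in females and -1.30 in males (limma adjusted p = 0.000394 and 0.000802), and without pool 6 the male difference was -1.21 (limma adjusted p = 4e-04).

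Some marker genes in heart also differed between KO and WT. The skeletal muscle median over 17 genes lay between 3.18 and 3.25 in female WT hearts, between 3.28 and 3.40 in female KO hearts, between 3.01 and 3.28 in male WT hearts and between 3.39 and 5.17 in male KO hearts. Of the 17, limma called Mybpc2 and Casq1 higher in female KO heart, Myl1 and Casq1 higher in male KO heart, and none lower. The summed level of the 17 was 67.8 to 69.7 in female KO hearts against 67.2 to 67.7 in WT. In males it was 70.7 to 85.9 in KO against 68.1 to 69.3 in WT hearts. Casq1 alone was at 5.61, 5.93 and 5.55 in female WT and 7.15, 7.45 and 7.01 in female KO hearts. In male KO pools 5 and 6, Tnnt3, Tnnc2 and Atp2a1 stayed within or below the WT range. Mybpc2, Myl1, Casq1, Pvalb and Myh1 lay above every male WT heart in both of these pools. Mybpc2 was at 5.29 and 5.15 there, against at most 4.89 in male WT hearts, and Myl1 at 6.72 and 6.66, against at most 6.16. Non-overlap held for 12.1% of all genes in female and 11.4% in male heart. Of the 17, KO pools lay above the WT pools for 4 in female and 5 in male heart, and below for 1 in each. The gene below was in each sex Acta1, the skeletal muscle actin gene. Its levels were 8.68, 9.39 and 8.77 in female WT and 8.19, 8.57 and 7.91 in female KO hearts, and 10.05, 10.12 and 8.88 in male WT and 8.79, 8.78 and 8.29 in male KO hearts. Every KO pool was below the WT pools of its sex, with differences of -0.73 and -1.07 that did not pass (limma adjusted p = 0.588 and 0.202). In male KO pool 4, the library with the marker median of 5.17, Acta1 was about as in pool 5. In female heart the summed cardiomyocyte markers were higher in KO and the summed adipocyte and erythroid markers lower, without overlap, and in male heart the macrophage and leukocyte markers were higher. Of these lists, Fabp4 of the adipocyte list was called higher in female KO heart. Whether these marker levels reflect numbers of cells was not tested, and neither was their part in the Fbp2 result.

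**Figure D3:**
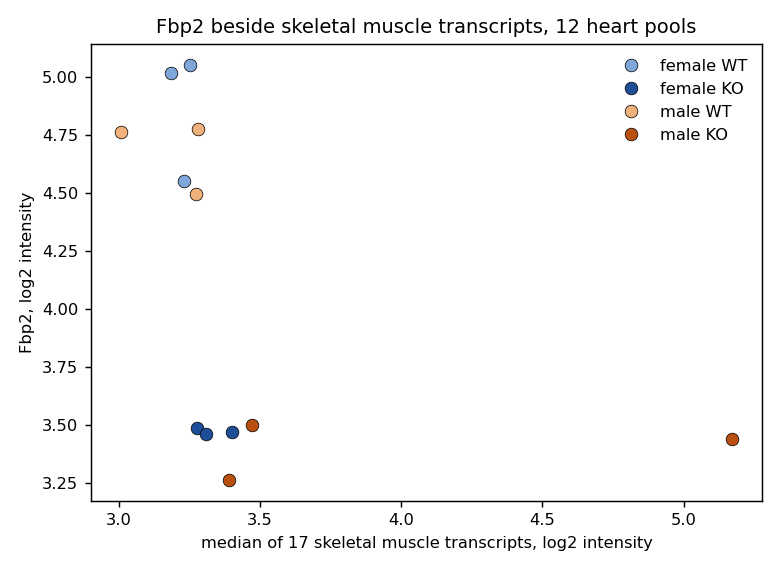
Fbp2 log2 intensity (vertical) against the median log2 intensity of 17 skeletal muscle markers (horizontal) in the 12 heart pools, coloured by sex and genotype. The 6 KO pools lie at or below 3.50 for Fbp2, with male KO pool 4 at a marker median of 5.17, and the 6 WT pools lie at or above 4.50.

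In liver Fbp2 was near the array median, from 2.63 to 3.08, and was not called, at 0.01 in females and -0.18 in males. Against heart, the KO effect in liver was higher by 1.41 in females (limma adjusted p = 1.8e-05) and by 1.10 in males (limma adjusted p = 0.000734). Fbp1, the liver fructose-1,6-bisphosphatase, whose gene is the neighbour of Fbp2 on chromosome 13, was looked at after the values of Fbp2 had been seen. Its mean was 12.1 in female WT liver and 12.2 in female KO liver, and in heart it was 2.91 and 3.22 in females and 2.97 and 2.93 in males, with no call in either tissue. The highest Fbp1 among hearts, 3.63, was in female KO pool 10, the library with the high Alb, and the other hearts had at most 3.10.

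The uptake and trapping genes of muscle were not called. Slc2a4, the insulin-regulated transporter, was at 10.24, 10.20 and 10.12 in female WT hearts and 10.27, 10.28 and 10.24 in female KO hearts at its brighter probe set. Male WT hearts had 10.18, 10.20 and 10.20 and male KO hearts 10.28, 10.33 and 10.35. In both sexes the KO pools were above the WT pools at both probe sets, by 0.08 and 0.28 in females and 0.13 and 0.09 in males, and none passed, with limma adjusted p of 0.929 and 0.838 at the brighter one. At that probe set the nearest female pools, KO pool 12 and WT pool 7, agree to 2 decimals. At the dimmer one the nearest male pools were 9.98 in KO pool 6 and 9.97 in WT pool 2. Hk2, which traps glucose as its phosphate, lay between 8.74 and 8.99 in all hearts, with differences of 0.04 in females (95% interval -0.13 to 0.20) and 0.12 in males (95% interval -0.04 to 0.28). In liver both were near the array median. Hk2 lay between 2.36 and 2.69, above that median in 11 of 12 arrays, and Slc2a4 between 2.56 and 3.22, above it in all 12.

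Slc2a1, the basal transporter, varied between pools and between its 3 probe sets. In female liver its brightest probe set had 4.04, 3.70 and 3.88 in WT and 4.73, 4.64 and 3.80 in KO. KO pools 10 and 11 were above all WT pools and KO pool 12 was within them. The difference of 0.52 did not pass (limma adjusted p = 0.584). Without pool 12 it was 0.81 and passed (limma adjusted p = 0.0176), with 203 genes called in place of 148. With all pools, the other probe sets differed by 0.16 and 0.07 in female liver. In male liver the same probe set had 4.08, 4.18 and 3.68 in WT and 3.49, 3.75 and 3.83 in KO, a difference of -0.29 that did not pass. In male heart it had 4.44, 4.50 and 4.42 in WT and 5.02, 4.61 and 4.74 in KO, which did not overlap. The difference of 0.34 did not pass (limma adjusted p = 0.721), and the other probe sets differed by 0.47 and 0.08. In female heart the difference was 0.04.

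**Figure D4:**
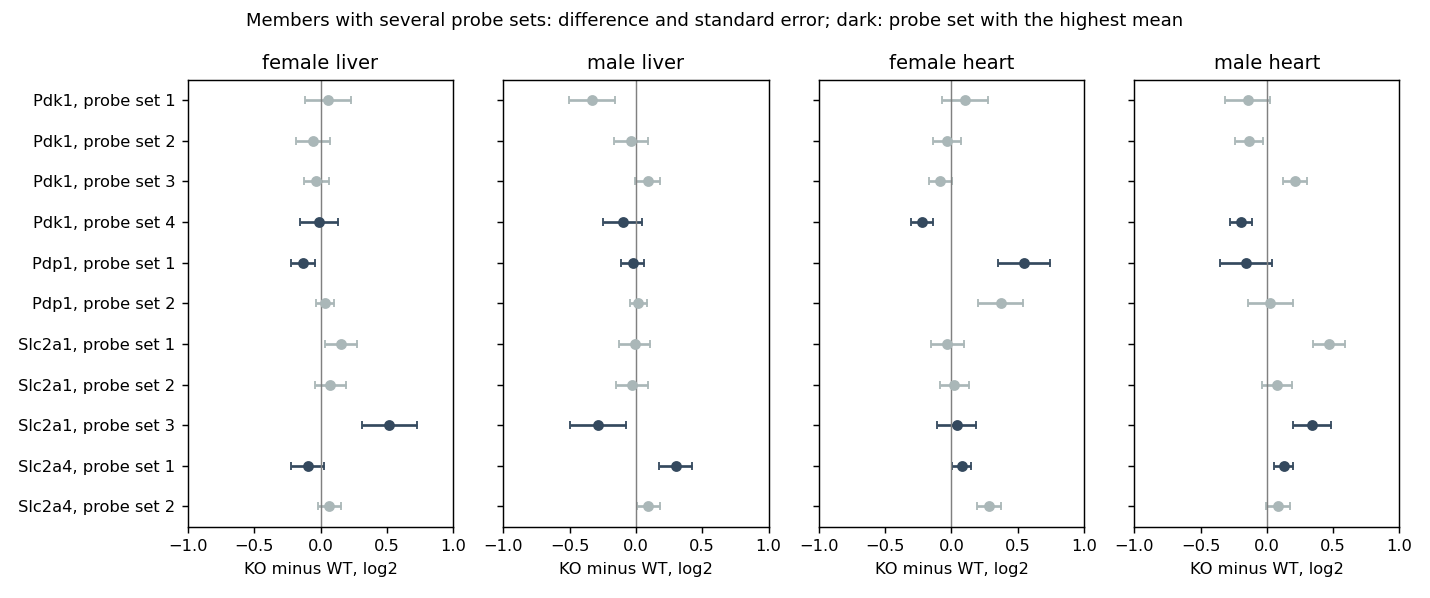
Difference between KO and WT in log2 intensity (horizontal axis, points with standard errors) for each probe set of the 4 genes with more than 1, by tissue and sex, with the probe set of the highest mean in dark. The probe sets of a gene spread widely for Slc2a1, over 0.07 to 0.52 in female liver and 0.08 to 0.47 in male heart. Those of Pdk1 spread over -0.33 to 0.09 in male liver and -0.20 to 0.21 in male heart, and no probe set was called.

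When all 45037 probe sets were tested in place of 1 per gene, limma called 0.48% of them in female liver, 0.344% in male liver, 0.311% in female heart and 0.275% in male heart, and of the 17 probe sets of these genes the Pdk4 one in both livers and the Fbp2 one in both hearts. With both sexes averaged, a comparison added after the values were seen, Pdk4 in liver was higher by 1.01 (limma adjusted p = 0.00041) and Fbp2 in heart lower, at -1.34 (95% interval -1.53 to -1.15, limma adjusted p = 2.29e-07). No other member passed there, where 1.36% of all genes were called in liver and 0.885% in heart. Pdk1 in heart had a difference of -0.21 in that comparison (limma adjusted p = 0.219).

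The tests of a difference between KO effects called 2 of the 10 genes between tissues in each sex, Pdk4 and Fbp2, against 0.698% of all genes in females and 0.517% in males. Between the sexes limma called 0 of the 10 in liver, where 2 had an unadjusted p under 0.05, Slc2a1 and Slc2a4, and 0 in heart, where 1 had, Pdp1. Over all genes the shares called were 0.066% in liver and 0% in heart, and the share at that unadjusted p was not counted. The comparisons of tissues use the same arrays as those of KO with WT.

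Females and males of one genotype were not called different for any of the 10 genes by limma, against 1.76% of all genes in WT liver, 1.93% in KO liver, 0.0275% in WT heart and 0.011% in KO heart. At an unadjusted p under 0.05 there were 1, 3, 0 and 1, and the share of all genes at that unadjusted p was not counted. The 3 in KO liver were Slc2a1, Pdk4 and Pdk1, higher in females by 0.70, 0.47 and 0.42 without passing (limma adjusted p = 0.158, 0.265 and 0.253). Of these, the Pdk1 pools did not overlap between the sexes. Nor did those of Pdk4 in WT liver and of Pdp1 in KO heart, also higher in females. The share of all genes for which this held was not counted. In KO liver Slc2a1 passed without pool 12, at 0.99 (limma adjusted p = 0.00234), with 421 genes called in place of 352. With all pools, its other probe sets had KO liver means of 3.66 in females and 3.37 in males, and of 2.96 and 2.99.

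The rest of glucose use was described by a list of 68 genes for the pyruvate dehydrogenase complex and pyruvate entry, glucose and lactate transport, glycolysis, glycogen, gluconeogenesis and regulators of glucose use, of which 60 were measured. Limma called 0 of the 60 in female liver, 1 in male liver, 0 in female heart and 0 in male heart. The gene called was Pparg, the nuclear receptor of fat cell formation, from 2.82 ± 0.07 to 3.49 ± 0.24 in male liver (SD, n = 3 pools, difference 0.67, limma adjusted p = 0.0328), while in female liver its difference was 0.20. The median difference over the 60 was -0.079 in female liver, -0.0012 in male liver, 0.018 in female heart and 0.042 in male heart. Among the listed genes not called, Txnip, which restrains glucose uptake, had the lowest limma adjusted p in female liver, 0.057, with means of 7.20 in WT and 5.98 in KO and a difference of -1.22, and in male liver its difference was -0.02. Of the 8 measured genes of the pyruvate dehydrogenase complex and pyruvate entry, 8 were below 0 in female liver (median -0.20), 6 in male liver (-0.073), 1 in female heart (0.12) and 3 in male heart (0.041), where 50.6%, 46.4%, 52.0% and 48.6% of all genes were below 0. Other lists were uneven too. In female liver 12 of 14 regulators of glucose use, 4 of 5 gluconeogenesis genes and 1 of 7 transport genes were below 0. For glycogen it was 4 of 10 and for glycolysis 7 of 16.

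Genes whose level followed that of Pdk4 were listed by Pearson correlation over the 12 arrays of a tissue, a description in which the arrays share their groups and normalization. In liver, over 11303 genes brighter than the array median, the closest were Tmem97 (r = 0.94), Smim22 (0.94), Selenow (0.93), Limd2 (0.93) and Tapbp (0.91), and those with the lowest r were Creb3l3 (-0.94), Acsm3 (-0.94) and Adtrp (-0.92). Without the 2 arrays farthest from the Pdk4 median, female KO pools 10 and 11, Tmem97 had r = 0.90 and Adtrp -0.91. In heart, over 11118 genes, the closest were Zfp148 (0.92), Ccdc150 (0.88), Tbc1d4 (0.86), Mon1a (0.85) and Gbp6 (0.85), and the lowest Ramp1 (-0.95), Sh3bgrl3 (-0.92) and Satb1 (-0.91). There the list rested in part on male KO pool 6 at 8.96 and female WT pool 7 at 9.72, without which Ccdc150 had r = 0.52, Gbp6 0.49 and Satb1 -0.39. Male KO pool 6 is the pool with the highest leukocyte markers, and their part in this list was not tested.

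**Figure D5:**
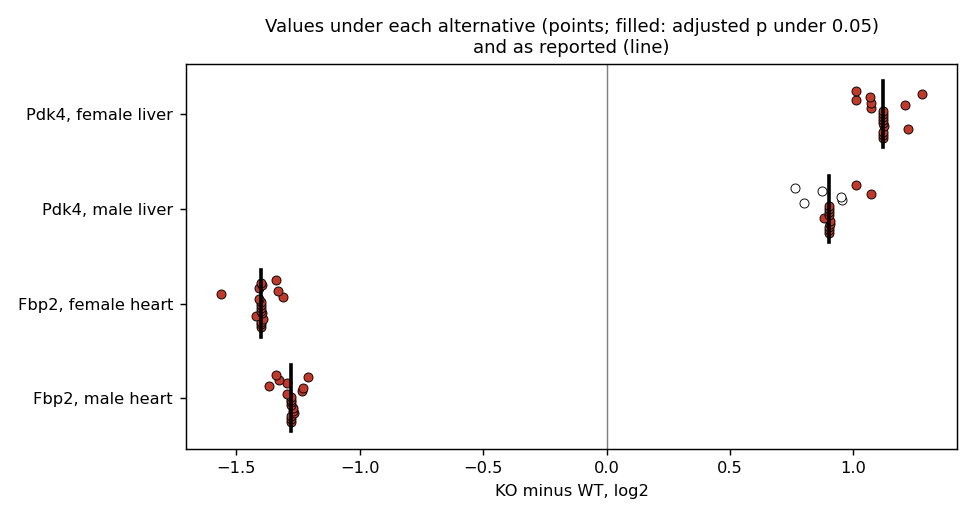
Difference between KO and WT in log2 intensity (horizontal axis) for Pdk4 in liver and Fbp2 in heart, each as reported (vertical line) and under each alternative analysis (points, filled where the adjusted p was under 0.05). Both Fbp2 rows and female liver Pdk4 are filled throughout, while male liver Pdk4 has 5 open points, those without pool 1, 2, 3, 5 or 6.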

How the data were processed

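RNA from livers and hearts was measured on 24 Affymetrix mouse arrays. The deposited values are log2 intensities that the authors made with RMA, per the submitters' processing notes, while the sources used here give no version or genome build. The 12 arrays of a tissue shared nearly 1 distribution, so levels were compared within a tissue. Of 45101 probe sets, 64 were controls, 34945 had 1 gene, 932 several and 9160 none. Each of 18193 genes was represented by the brightest, by mean over the 24 arrays, of its probe sets with 1 gene, and 9010 genes had more than 1. No dim gene was left out. Precision is limited by the number of arrays.

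limma 3.58.1 in R 4.3.3 (cell-means fit, eBayes, two-sided, Benjamini-Hochberg over all genes, threshold 0.05) was fitted to the 12 arrays of each tissue, and to all 24 for tissue by genotype, in 12 comparisons. Named genes were the 10 members, Ppara, pathway genes called in a comparison of KO with WT, and the 5 highest and 3 lowest correlations with Pdk4, passing over Xist, Y-linked and clone names. The members, lists and rule were chosen with earlier results of these data known. Exceptions named after their values were seen are Fbp1, Txnip, single marker genes and, as label checks, Xist and Eif2s3y. The pipeline was tested on simulated data. Alternatives changed the fit, variance model, weights, normalization, dim-gene filter, probe set choice, pairing and pools. Liver and heart came from the same animals, but the labels do not say whether same-numbered pools hold the same ones, and these did not deviate together, so the main fit has no block.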

Additional observations from a re-analysis of the deposited data

Results flagged for a closer look

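The KO effect on Pdk4 and on Fbp2 differed between liver and heart by a test of the difference itself. For Pdk4 the effect in liver minus that in heart was 1.18 in females and 1.12 in males, with a rise in liver and no call in heart. For Fbp2 it was 1.41 in females and 1.10 in males, with a fall in heart and no call in liver, where the signal was near the array median. Limma adjusted p-values were 0.00497 and 0.0104 for Pdk4 and 1.8e-05 and 0.000734 for Fbp2, for females and males. The male Pdk4 value did not pass with the pool number as a replicate block (adjusted p = 0.0731).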

How the results depend on the processing

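Fbp2 in heart was called in both sexes under each of its 18 alternatives, from -1.56 to -1.31 in females and from -1.37 to -1.21 in males. Pdk4 in female liver was called under each of its 17, from 1.01 to 1.28 (limma adjusted p from 5.64e-05 to 0.0409). The count of members called in male liver was 0 to 1 when single pools were left out. In female liver it was 1 to 2, and 2 with array weights, where Slc2a1 joined Pdk4. Between the sexes in KO liver it was 0 to 1 when pools were left out, 1 with all 24 arrays in 1 fit (Slc2a1) and 3 with array weights (Slc2a1, Pdk4 and Pdk1). With the pool number as a replicate block, tissue by genotype in males called 1 member, Fbp2, with Pdk4 at an adjusted p of 0.0731. Whether the numbers pair the pools is not given: same-numbered liver and heart pools correlated between -0.19 and 0.13, over 0.1 for 1 of 12, and 4 of 12 correlated best with their own number. The block ended no other call of a member. The cause of these changes was not tested. Of 36 uncalled pairs of member and comparison of KO with WT, 35 stayed uncalled throughout and 15 changed sign in some alternative. Over all genes, calls ranged from 55 with only the compared arrays to 326 with array weights in female liver (148 as reported), from 55 without pool 5 to 248 with both sexes averaged in male liver (110), from 59 without heart pools 4 and 10 to 161 with both sexes averaged in female heart (97), from 58 with only the compared arrays to 161 with both sexes averaged in male heart (73) and from 63 with only the compared arrays to 253 with array weights for tissue by genotype in females (127). For sex by genotype in liver they ranged from 4 without pool 2 to 31 with all 24 arrays in 1 fit (12). For females against males they ranged from 206 without pool 3 to 600 with all 24 arrays in 1 fit in WT liver (320), from 190 with only the compared arrays to 734 with array weights in KO liver (352), from 0 without pool 1 to 13 with all 24 arrays in 1 fit in WT heart (5) and from 0 with only the compared arrays to 11 with all 24 arrays in 1 fit in KO heart (2). Signals near the array median, such as Pdk4 in WT liver, limit how low a level can be measured.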
